A study of Mus musculus with 2 samples.

Results

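The abundant lincRNA genes of inflammation-experienced regulatory T cells are 119 genes. They are annotated as lincRNA in GENCODE M21 and reached 5 TPM or more in the larger gene table of both libraries, with AY036118 left out. TPM is a transcript level after division of counts by transcript length, scaled to the same sum in each library. The annotation held 5853 lincRNA genes without AY036118, so the 119 were 2.03% of them, and it held 55536 genes in all. The genes were chosen by their TPM in these 2 libraries, so the levels below describe them and are no test. The RNA came from regulatory T cells labelled as experienced in inflammation, taken from an adult male mouse aged 6 months of the strain Foxp3CreERT2 x Rosa26YFP. In that strain the Foxp3 locus drives a tamoxifen-controlled Cre recombinase and the Rosa26 locus carries a YFP reporter. The labels gave 1 group with 1 biological replicate, and polyA RNA of it was sequenced as technical replicates 1 and 2. Paired values below give technical replicate 1 and then 2. No other condition was analysed here, and how the cells were sorted is not given in the sources used here.

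Long intergenic noncoding RNAs are transcripts that are usually spliced and polyadenylated like messenger RNAs but have no long open reading frame. Some act in the nucleus as scaffolds of bodies such as speckles and paraspeckles, and some are mainly carriers of small RNAs that are cut out of their introns or exons. In T cells, host transcripts of microRNAs such as miR-155 and miR-142 are well known members of the class, and both microRNAs are needed for normal regulatory T cell function.

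The cells carried marker genes of T cells and of regulatory T cells. All 6 T cell markers and all 6 regulatory T cell markers reached 1 TPM in both libraries, with medians of 954.4 and 300.3 TPM. Foxp3 was the lowest of the regulatory T cell markers, with 22.05 and 17.9 TPM. None of 6 B cell, 8 myeloid or 6 stromal and epithelial markers did, and their highest mean level was 1.27 TPM. Of 6 markers of natural killer and CD8 cells, Cd8a reached 2.52 and 2.35 TPM, while Ncr1 and Klre1 were at 0. Gene totals were 15386113 estimated counts in technical replicate 1 and 13604480 in technical replicate 2. The spread between technical libraries says nothing of the spread between animals. In bulk RNA a low level in every cell and a higher level in few cells cannot be told apart.

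The sequences below are those on which the reading of the levels turns. The annotated small transcript Malat1-203 carried nearly all of the TPM of the most abundant lincRNA gene, and its end lies opposite another abundant annotated gene, Gm37376. Its positions 236 to 485 (GRCm38, minus strand, spliced, between chr19:5801916-5802436) are shown with the 182 bases opposite Gm37376 in capitals. Gm10076-201 (chr14:105681828-105682211, plus strand) is shown from base 1 to 300 of 384, with capitals for bases that fall in a 31-base word also found in transcripts of Rpl41, a ribosomal protein gene. Bc1-201 (chr7:144914470-144914637, plus strand) is the member with the largest difference between the libraries. Its capitals mark bases in 31-base words of transcripts of Lrrc17, a gene that itself had only 0.04 and 0 TPM. These sequences are GENCODE M21 transcripts.
Malat1-203, 236 to 485: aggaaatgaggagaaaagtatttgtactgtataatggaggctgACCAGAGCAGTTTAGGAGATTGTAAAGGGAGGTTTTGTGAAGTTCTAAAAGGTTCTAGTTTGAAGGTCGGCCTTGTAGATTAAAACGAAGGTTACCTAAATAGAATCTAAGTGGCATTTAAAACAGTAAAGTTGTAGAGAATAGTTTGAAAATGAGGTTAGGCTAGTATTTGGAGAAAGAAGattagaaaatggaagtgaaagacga
Gm10076-201, 1 to 300: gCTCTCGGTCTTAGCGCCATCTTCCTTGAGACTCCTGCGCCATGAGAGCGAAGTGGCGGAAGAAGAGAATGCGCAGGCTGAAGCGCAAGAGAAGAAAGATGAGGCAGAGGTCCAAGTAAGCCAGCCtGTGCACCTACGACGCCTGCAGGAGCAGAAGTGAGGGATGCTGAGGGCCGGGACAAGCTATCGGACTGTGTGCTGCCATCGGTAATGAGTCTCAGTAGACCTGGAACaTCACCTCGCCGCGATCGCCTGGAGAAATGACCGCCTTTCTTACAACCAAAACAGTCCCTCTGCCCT
Bc1-201: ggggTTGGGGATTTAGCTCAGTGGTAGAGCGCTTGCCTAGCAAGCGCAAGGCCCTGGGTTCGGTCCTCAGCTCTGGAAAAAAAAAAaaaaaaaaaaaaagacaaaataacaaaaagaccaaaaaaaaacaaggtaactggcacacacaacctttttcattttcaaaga

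Small RNAs inside the members are shown as the second set, since they define the host genes. Snord87 lies in Snhg6 (chr1:9942463-9942549, minus strand). Snord99 (chr4:132310691-132310764, plus strand), Snora61 (chr4:132310240-132310369, plus strand) and Snora16a (chr4:132309465-132309600, plus strand) lie in Snhg12. Capitals mark box C (TGATGA, within 20 bases of the start) and box D (CTGA, within 20 bases of the end) in the SNORD genes, and the ACA within 10 bases of the end in the SNORA genes, on the RNA strand. Of 1507 annotated snoRNA transcripts, 20.6% held both boxes and 47.4% held the ACA in these windows. Snora44, also in Snhg12, held no ACA in this window and is not shown.
Snord87: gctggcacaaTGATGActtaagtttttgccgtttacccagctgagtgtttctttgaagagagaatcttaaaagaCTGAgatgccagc
Snord99: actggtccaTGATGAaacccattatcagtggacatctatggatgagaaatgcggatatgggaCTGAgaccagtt
Snora61: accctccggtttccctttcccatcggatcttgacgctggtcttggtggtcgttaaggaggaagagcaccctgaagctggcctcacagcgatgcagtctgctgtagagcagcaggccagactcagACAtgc
Snora16a: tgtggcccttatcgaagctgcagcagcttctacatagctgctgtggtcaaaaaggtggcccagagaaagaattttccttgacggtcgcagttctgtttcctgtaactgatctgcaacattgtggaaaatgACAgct

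The mature microRNAs of the host members are from RefSeq (GRCm38.p6) with the seed, bases 2 to 8, in capitals. RefSeq held mature sequences for 7 of the 8 microRNA genes, 12 in all, and no seed was shared by any of them. The 6 shown come from Mir155hg (chr16:84714143-84714165, plus strand), Mir142hg (chr11:87756867-87756887 and chr11:87756903-87756925, plus strand), E130102H24Rik (chr4:101346957-101346977, minus strand) and Ftx (chrX:103573112-103573133 and chrX:103572966-103572986, minus strand).
mmu-miR-155-5p: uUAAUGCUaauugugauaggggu
mmu-miR-142a-5p: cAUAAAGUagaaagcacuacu
mmu-miR-142a-3p: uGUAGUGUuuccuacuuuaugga
mmu-miR-101a-3p: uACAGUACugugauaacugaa
mmu-miR-374b-5p: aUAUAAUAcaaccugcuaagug
mmu-miR-421-5p: cUCAUUAAauguuuguugaau

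The levels of the 119 genes were concentrated in a few. Their median was 14.6 and 14.01 TPM in the libraries, and over their mean TPM it was 14.3, against 25.5 for the 9272 other genes with 5 TPM or more in both libraries. By mean TPM, 2 genes exceeded 1000, 8 lay between 100 and 1000, 6 between 50 and 100, 22 between 20 and 50, 42 between 10 and 20, and 39 below 10. Of the 5853 lincRNA genes, 3791 were at 0 in both libraries, while 36.9% of 22028 protein-coding genes passed the same threshold. All members together took 0.875% and 0.880% of gene counts. The exact 95% bounds of these shares were 0.871 to 0.880% and 0.875 to 0.885%, by the Clopper-Pearson method. Malat1 made up 45.2% and 41.1% of the members' counts and 65.1% and 61.8% of their summed TPM. The lowest member counts were 24 and 20, the median counts were 238 and 205, and 31 members had under 100 counts in a library.

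**Figure D1:**
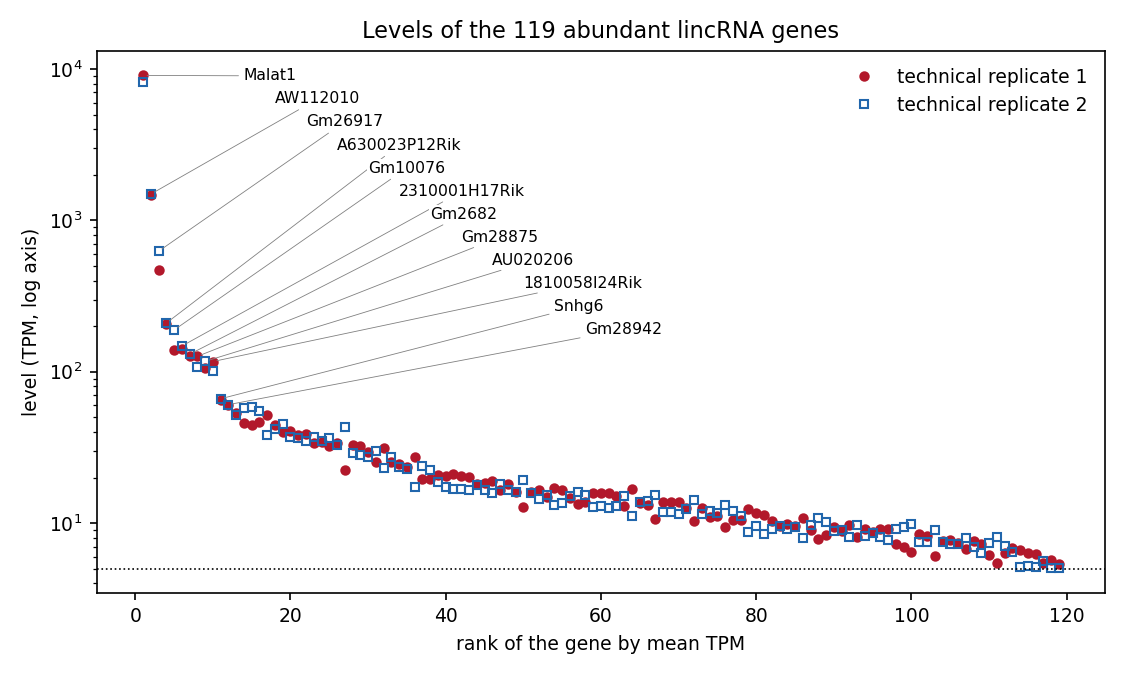
TPM of each of the 119 genes in technical replicate 1 (filled circles) and technical replicate 2 (open squares) on a log axis, ordered by mean TPM, with the 12 highest named and the 5 TPM threshold dotted. Levels fall from 9066 and 8189 TPM for Malat1 to 60.6 and 60.5 TPM for Gm28942 within the first 12 ranks, and the libraries lie close together at most ranks.

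Malat1, a nuclear RNA of splicing speckles, stood first with 9066 and 8189 TPM (chromosome 19, 5795690 to 5802672, minus strand). AW112010, described in mouse as an interferon-induced transcript of immune cells, followed with 1472 and 1489 TPM (chromosome 19, 11047612 to 11055808, minus strand), from 10718 and 9576 counts. Both libraries gave the same order for these genes. Gm26917 (chromosome 17, 39843013 to 39846341, plus strand) had 468 and 624 TPM, the widest ratio between libraries among the first 3. The next level was shared by A630023P12Rik (206 and 209.5 TPM), Gm10076 (138 and 189 TPM), 2310001H17Rik (142 and 148 TPM), Gm2682 (126 and 130.5 TPM), Gm28875 (126 and 108 TPM), AU020206 (105 and 117 TPM) and 1810058I24Rik (117 and 101 TPM). The order of the last 6 of these differed between the libraries. Snhg6 had 64.8 and 66.3 TPM and Gm28942 had 60.6 and 60.5 TPM.

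The rule's threshold cut through a continuous range. Just inside it, Gm26582 had 5.40 and 5.04 TPM, Gm26563 had 5.71 and 5.05 TPM and Gm26848 had 6.60 and 5.14 TPM. Just outside it, Gm26532 had 4.90 and 5.83 TPM, the host gene Snhg10 had 4.82 and 6.81 TPM and Gm28187 had 4.79 and 4.94 TPM. A further count of the lincRNA genes gave 21 that reached 5 TPM in only 1 library.

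The first place of Malat1 rested on a short annotated transcript. Malat1-203 has 485 nt in 2 exons (5802238 to 5802671 and 5801916 to 5801966) at the start of the gene, and it held 98.4% and 98.3% of the gene's TPM. Of the counts it held 79.3% and 78.3%, that is 48323 and 38525. The 6983 nt transcript Malat1-201 had 12603 and 10679 counts, which came to 146 and 140.3 TPM. The other annotated Malat1 transcripts were at 0. On the opposite strand Gm37376 (5801941 to 5802393, an unclassified single transcript) had 5783 and 5620 TPM, and all its 453 bases lie on exons of Malat1. Its level is of the same order as that of Malat1, and the strand setting of the authors' counting is not given in the sources used here, so reads of the 2 genes cannot be told apart where they overlap.

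A level that does not depend on the choice of transcript was set beside TPM for this reason. It divides a gene's counts by the union of its annotated exons and scales it to the same sum as TPM, and it was added after the TPM values were seen. Over all 9391 genes with 5 TPM or more its median differed from TPM by -0.01 on the log2 scale, and over the members by 0.67. On this scale AW112010 came first, with levels of 2085 and 2103, ahead of Malat1 with 1365 and 1244 and Gm26917 with 896 and 1193. This level of Malat1 leaves out the 29028 and 24926 counts given to Gm37376, whose bases lie on Malat1 exons. How far the order of AW112010 and Malat1 rests on that division of reads was not tested. Relative to the median of all genes, the log2 difference of this level from TPM was -2.71 for Malat1. It was -1.68 for Neat1, the scaffold of paraspeckles, -1.71 for 2310001H17Rik, -1.95 for Lockd and -1.89 for Jpx. In all, 19 of the 119 members were over 2-fold below the median of all genes, which is 16.0%, against 13.4% of the other genes with 5 TPM or more. With 5 on this scale as the threshold, 108 of the 119 members passed and 42 other lincRNA genes did too.

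**Figure D2:**
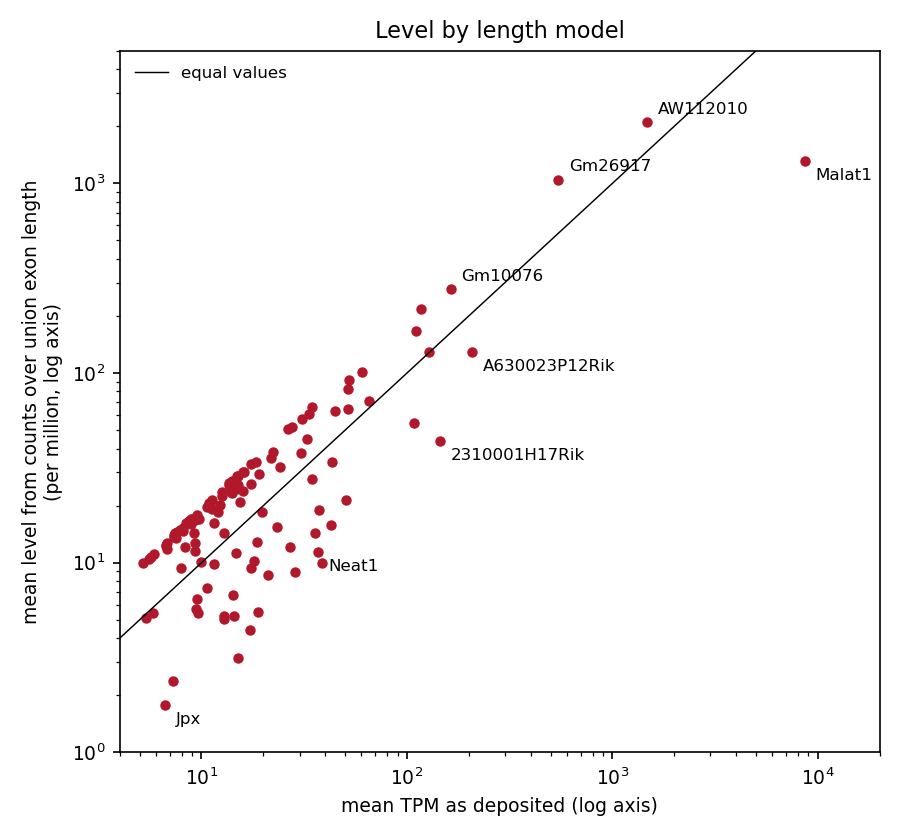
Mean level from counts over union exon length against mean TPM for the 119 genes, both on log axes, with a line of equal values. Malat1 lies far below the line and AW112010 above it, so their order changes with the length model.

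Most members had a clear leading transcript. Of the 119, 65 had several annotated transcripts, and 104 had 1 transcript that held 50% or more of the TPM in each library, 50 of them among those 65. AW112010-202 (625 nt) held 93.2% and 93.3% of its gene's TPM. Neat1-202 (3004 nt), the short form of Neat1, held 98.2% and 95.04%, while the 20771 nt form Neat1-201 had 181 and 190.3 counts. These are estimated shares in polyA RNA, and whether polyA selection favoured 1 of the Neat1 forms was not tested. The leading transcript differed between libraries in 7 members, which were Lncpint, Snhg12, 1300002E11Rik, Pvt1, Dubr, 1700021A07Rik and Gm13842, named here after their values were seen. For 1300002E11Rik, technical replicate 1 put 47.9% of the TPM on the 580 nt transcript 1300002E11Rik-205 and 0% on the 574 nt transcript 1300002E11Rik-203. Technical replicate 2 put 2.25% and 41.0% on them. The gene's summed level hardly moved, at 34.1 and 37.0 TPM.

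Several members share much of their sequence with other genes. The share of a member's distinct 31-base words that occur on the same strand in transcripts of another annotated gene had a median of 0.997%. It was 0 in 41 members, under 5% in 81, and 50% or more in 7. For Gm10076, 84.2% of 354 words were shared, and 82.2% occurred in Rpl41 alone. In all, 381 of its 384 bases lie in words of Rpl41, the capitals above. Rpl41 had 5334 and 5332 TPM, so Gm10076 held a small share of the reads of the pair. In the smaller table of whole counts, Gm10076 had 0 and 2 counts, against 576 and 693 estimated counts in the larger table. Rpl41 also stood far lower there, with 169 and 162 counts against 26442 and 23208, so the low count is not particular to Gm10076. The word share was 90.9% for Gm26581 (9.67 and 8.13 TPM, most like Gm10825), 81.9% for Gm13166 (39.9 and 45.3 TPM, most like Gm13236), 80.1% for Gm45733 (27.4 and 17.3 TPM, most like Baz2a), 71.2% for Gm42031, 62.0% for Gm12840 and 57.8% for AC102496.1. These 7 genes and their partners were named after the shares were computed. The share pools words over all other genes and need not point to 1 partner. For AC102496.1 the most similar gene held 41.2% of the words. How reads were divided among such genes was not tested, and the levels of the 7 are uncertain for that reason. They are not the only uncertain ones, since these shares cover the same strand and the strand setting is not given. On the reverse strand, other genes held 98.6% of the words of Gm26733 and 96.3% of those of Gm42418. The reverse-strand share was 96.1% for Gm27022 and 90.8% for Gm26669. AW112010 and Gm26917 had no word in another gene on either strand.

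The members Gm26917 and Gm42418 of the ribosomal RNA locus on chromosome 17 were both lower in technical replicate 1. Gm26917 had 19072 and 22485 counts, and Gm42418 (39846958 to 39848788, plus strand) had 25.2 and 30.1 TPM. Of the 1831 exon bases of Gm42418, 1822 lie opposite the ribosomal RNA gene CT010467.1, which had 9275 and 11755 TPM. AY036118 of the same locus, which the rule left out, differed less, with 6276 and 6533 TPM. Genes of the type rRNA took 1.35% and 1.70% of counts. All these values were lower in technical replicate 1. Whether ribosomal RNA reads entered the lincRNA levels was not tested.

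The libraries agreed closely on most members. The log2 ratio of TPM, technical replicate 1 over 2, had a median of 0.03 and an SD of 0.28 over the members, against a median of 0.00 and an SD of 0.26 over all 9391 genes with 5 TPM or more. Across the 119 genes, Pearson's r between the libraries was 0.985 on log2 TPM, and Spearman's rho was 0.954. Genes are not replicates, the libraries share their RNA, and the threshold in both libraries removes genes with large ratios near it. Past 1.5-fold in either direction were 5 of the 119 members (4.20%), against 3.38% of all 9391 genes under the same threshold, so the share was near the background. In technical replicate 1, 2 members were higher by that measure, against a background of 1.85%, and 3 were lower, against 1.52%.

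The 5 members past 1.5-fold had few counts. Bc1, a small cytoplasmic RNA known from rodent neurons, had 22.5 and 42.9 TPM, from 33.2 and 56.0 counts, a log2 ratio of -0.93. Gm45733 had a log2 ratio of 0.67 from 132 and 73.6 counts. Gm48671 had a log2 ratio of -0.61 from 55 and 74.4 counts, and Gm36738 one of 0.60 from 72 and 42 counts. Gm6712 had a log2 ratio of -0.59 from 72.7 and 97.1 counts. No member differed 2-fold. Of these 5, Bc1 shares 40.6% of its words with other genes, Gm45733 80.1% and Gm6712 44.1%. Among members with a mean count under 100 the median absolute log2 ratio was 0.27 (28 genes), against 0.26 for 699 other genes in that range. Between 100 and 300 counts it was 0.15 (46 genes), against 0.19 for 1783 other genes, and between 300 and 1000 it was 0.19 (34 genes), against 0.14 for 3798. With a mean count of 1000 or more it was 0.12 (11 genes), against 0.08 for 2992 other genes.

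**Figure D3:**
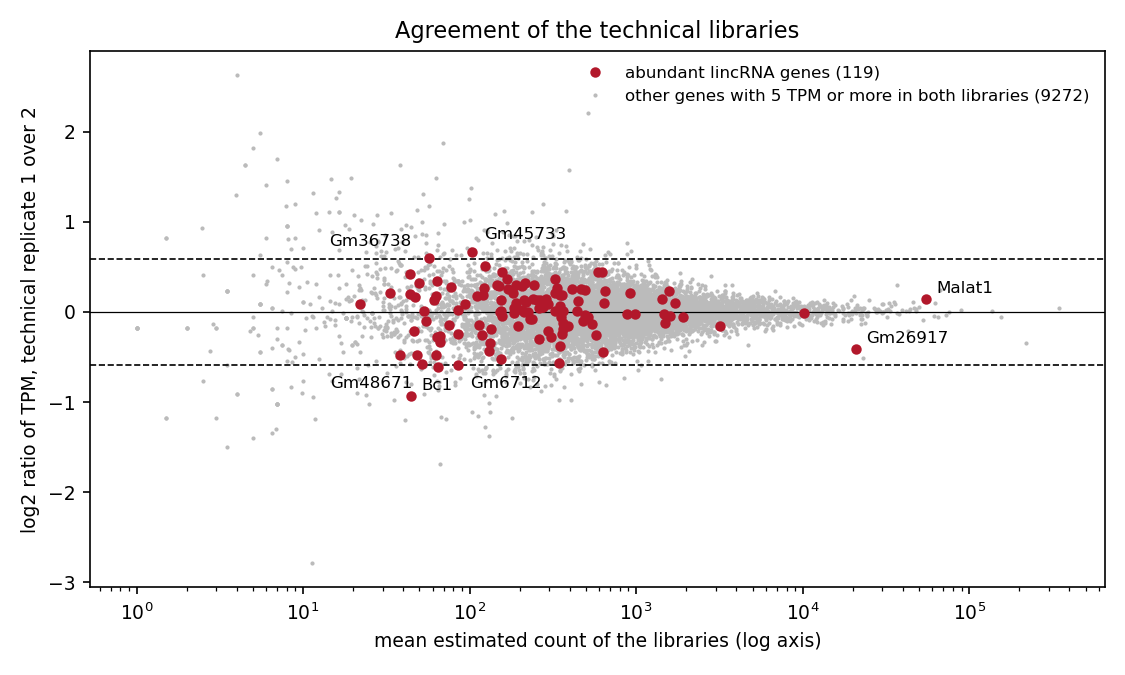
Log2 ratio of TPM, technical replicate 1 over 2, against the mean estimated count (log axis) for the 119 lincRNA genes (red) and the 9272 other genes with 5 TPM or more in both libraries (grey), with 1.5-fold dashed. The 5 named members outside the dashed lines have few counts, while Gm26917 lies apart from other genes of its count at -0.42.

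An exact two-sided binomial test on rounded counts compared the libraries gene by gene, with Benjamini-Hochberg adjustment over 17334 genes. It compares 2 libraries of 1 RNA and no condition, and it assumes that read sampling alone separates them. It called 23 of 119 members (19.3%), against a background of 19.2% of all genes tested and 22.5% of those with 5 TPM or more, so the share was near the background. Of the 23, 14 were higher in technical replicate 1 (background 9.78%) and 9 were lower (background 9.42%). The called members include Malat1, with a log2 ratio of 0.15 and an adjusted p of 2.32e-48, and Gm26917, with a log2 ratio of -0.42 and an adjusted p of 6.58e-184, by this exact test. Gm10076 was called lower as well (log2 ratio -0.45, exact test, adjusted p = 3.69e-06), and Mirt1 higher (log2 ratio 0.44, exact test, adjusted p = 4.9e-05). AW112010 was not called, with a log2 ratio of -0.02. The 95% counting interval of the ratio spanned 0 for 80 of the 119 members. The variance over all genes was 4.98 times that of read sampling, so the adjusted p-values and counting intervals overstate certainty. At high counts, calls can also mark small differences.

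Few of the abundant lincRNA genes were hosts of small nucleolar RNAs, which guide the chemical modification of ribosomal RNA and are processed from introns of their hosts. An annotated snoRNA on the same strand lay inside 3 members, which is 2.52%, against 0.506% of the 5734 other lincRNA genes. Snhg6 (chromosome 1, 9941959 to 9944118, minus strand), the host of Snord87, had 64.8 and 66.3 TPM. Snhg12 (chromosome 4, 132308623 to 132311024, plus strand), the host of Snora16a, Snora44, Snora61 and Snord99, had 38.1 and 36.7 TPM. Epb41l4aos (chromosome 18, 33794892 to 33795986, plus strand), which spans the snoRNA Gm23639, had 13.3 and 16.1 TPM. All 3 differed by less than 1.5-fold between libraries. The snoRNAs themselves gave 9 and 3 counts for Snord87 and 4.4 and 0 for Snord99, and the others of these hosts at most 1.48 counts, in libraries of polyA RNA. Snhg20 (46.4 and 55.1 TPM) held no snoRNA but Gm26083, a small Cajal body RNA with 25.2 and 20.3 counts, and 2900076A07Rik (23.6 and 22.9 TPM) held the small Cajal body RNA entry of Mir1839.

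A list of 21 named host genes shows how the annotation splits this class. The annotation held 18 of them, of which 6 were lincRNA and 10 were processed transcripts. Of the 18, 14 reached 5 TPM in both libraries and 4 of these were lincRNA, namely Snhg6, Snhg20, Snhg12 and Epb41l4aos. The highest host, Gas5, a host of many box C/D snoRNAs, had 1051 and 1064 TPM but is annotated as a processed transcript, as are Snhg5 (112 and 101 TPM), Zfas1 (106 and 98.6 TPM), Snhg1 (83.6 and 89.2 TPM) and Snhg8 (83.3 and 83.7 TPM). These 5 all lay above Snhg6 in both libraries. Snhg10 missed the threshold in technical replicate 1 alone and Snhg18 was at 0. Past 1.5-fold between libraries was 1 of the 14, Snhg9, with 8.41 and 13.6 TPM from 14 and 20 counts.

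**Figure D4:**
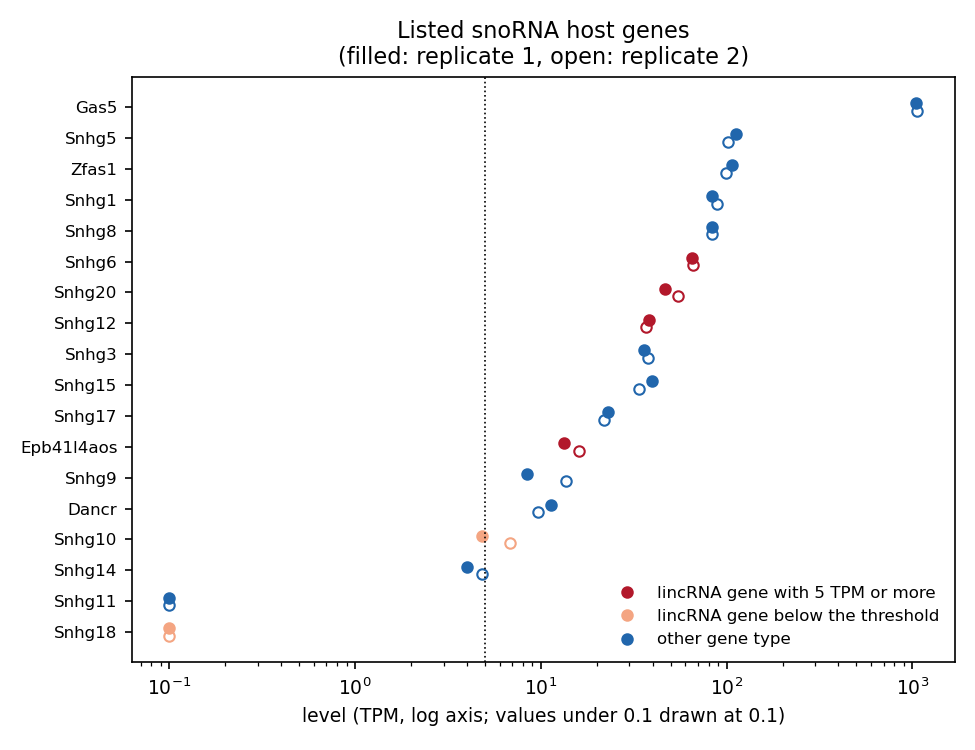
TPM of the 18 annotated genes of the host list in technical replicate 1 (filled) and technical replicate 2 (open) on a log axis, coloured by whether they are lincRNA genes, with the 5 TPM threshold dotted. The lincRNA hosts Snhg6, Snhg20 and Snhg12 lie below the 5 highest hosts, which are of another gene type.

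MicroRNA genes lay on the same strand inside 7 members. Mir142hg (chromosome 11, 87755577 to 87757270, plus strand), the host of the blood cell microRNA miR-142, had 45.7 and 58.0 TPM, from 125 and 140 counts. Mir155hg (chromosome 16, 84703167 to 84715245, plus strand), the host of miR-155, had 19.6 and 23.8 TPM from 296 and 318 counts. Both differed by less than 1.5-fold and neither was called by the exact binomial test. E130102H24Rik (7.33 and 9.21 TPM) spans Mir101a, Ftx (13.8 and 11.9 TPM) spans Mir421 and Mir374b, Snhg20 spans Mir6516, 2900076A07Rik spans Mir1839 and Gm26551 (16.0 and 15.8 TPM) spans the entry Gm24157. Each of these 8 microRNA genes had under 1 count in either library, so the host transcripts and not the microRNAs were measured.

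Of 72 long noncoding RNA genes named in the literature, 62 were in the annotation, 30 as lincRNA, and 15 of these were among the 119. Besides Malat1, the 4 host genes and the 2 microRNA hosts above, 1700020I14Rik had 44.7 and 41.9 TPM, Neat1 38.8 and 35.1 TPM and 2900097C17Rik 25.2 and 27.4 TPM. Lncpint, a target of the p53 pathway, had 40.3 and 37.1 TPM. Pvt1, which lies next to Myc, had 19.7 and 22.5 TPM, and Myc 85.0 and 87.0 TPM. Lockd, downstream of the cell cycle inhibitor gene Cdkn1b, had 18 and 16.5 TPM, and Cdkn1b 38.7 and 44.9 TPM. The X inactivation centre genes Ftx and Jpx had 13.8 and 11.9 TPM and 6.87 and 6.45 TPM, while Xist of the same locus had 0.59 and 0.52 TPM in this male mouse. At 0 in both libraries were 7 of the 30, among them H19, Hotair and Carmn.

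Genes of T cell lists lay within 100 kb of 12 members (10.1%), against 2.41% of the 5734 other lincRNA genes. The lists held 202 genes, and 17 of them were such neighbours, of which 16 reached 5 TPM in both libraries. Since the members were chosen for their level in T cells, the shares are a description. In 8 of the 12 pairs the member was lower than its nearest listed gene by mean TPM.

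Members beside genes of T cell receptor signalling and identity were far lower than those genes. 2010300F17Rik (chromosome 11, 96712982 to 96747436, minus strand) had 16.4 and 14.5 TPM and overlaps Skap1, a receptor signalling adaptor, on the opposite strand with 186 shared exon bases. Skap1 had 538.1 and 538.4 TPM, and whether its reads entered the level of 2010300F17Rik was not tested. Gm26551 (chromosome 11, 51949882 to 52269514, minus strand) had 16.0 and 15.8 TPM and overlaps Tcf7, a transcription factor gene of naive and memory T cells, on the same strand with no shared exon base. Tcf7 had 297 and 295 TPM. The span of Gm26551 overlaps 8 protein-coding genes, so Tcf7 is 1 of several. Others are Ube2b (130.4 and 126.9 TPM, same strand) and Cdkn2aipnl (72.7 and 74.0 TPM, opposite strand). Gm44226 (13.8 and 11.5 TPM) and 4833403J16Rik (12.5 and 8.76 TPM) lie in the cluster of the 8 listed Gimap genes, GTPases of lymphocyte survival, and share 649 exon bases with each other on opposite strands. Their nearest listed gene Gimap5 had 176 and 175 TPM, and the other Gimap neighbours lay between Gimap8 (123 and 113 TPM) and Gimap4 (1393 and 1407 TPM).

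Members within 100 kb of 2 cytokine receptor genes, a surface protein gene and a transcription factor gene were lower than those genes in both libraries. The gaps differed in size, and in each pair another protein-coding gene, not on the lists, lay nearer. Rac2 (3061 and 2928 TPM) lies 1.63 kb from Gm36738, and Ly6e (1788 and 1724 TPM) lies 18.7 kb from Gm39556. Gm36738 lies 79.1 kb from Il2rb, the beta chain of the interleukin-2 receptor, and had 16.8 and 11.1 TPM, while Il2rb had 335 and 310.3 TPM. Gm39556 lies 58.6 kb from Ly6a and had 6.91 and 9.36 TPM, while Ly6a had 373 and 376 TPM. 2010320M18Rik lies 30.6 kb from Il12rb1, a chain of the interleukin-12 and interleukin-23 receptors, and had 6.37 and 7.02 TPM, while Il12rb1 had 10.3 and 15.1 TPM. Gm11454, 59.2 kb from the HMG-box factor gene Tox2, had 5.42 and 8.08 TPM, while Tox2 had 8.23 and 10.7 TPM. In the last pair the ranges over the libraries nearly met, and on the union exon scale the ranges of the last 2 pairs overlapped.

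In 4 members the mean TPM of the lincRNA was above that of its neighbour, and in 2 of these it was below it on the union exon scale. 2310001H17Rik (chromosome 6, 129208412 to 129238725, minus strand) had 142 and 148 TPM and lies 28.6 kb from Cd69, an early activation and tissue retention receptor gene on the same strand, which had 130.3 and 148 TPM. The ranges of this pair overlapped, but on the union exon scale 2310001H17Rik had levels of 42.9 and 44.8 and Cd69 had 78.2 and 86.1. Gm14005, 15.8 kb from the pro-apoptotic gene Bcl2l11, had 16.5 and 13.5 TPM, while Bcl2l11 had 10.6 and 12.3 TPM. On the union exon scale Gm14005 had levels of 3.46 and 2.82 and lay below Bcl2l11, with 10.9 and 11.8, so the order of both pairs depends on the length model. Mirt1 had 31.2 and 23.0 TPM and 4833407H14Rik 13.3 and 14.01 TPM, while Dusp5, a phosphatase gene of the ERK pathway 64.3 and 66.4 kb away, had 4.78 and 4.43 TPM. On the union exon scale both stayed above Dusp5 in each library. Mirt1 and 4833407H14Rik share 1008 exon bases on opposite strands. Protein-coding genes not on the lists lay nearer to 2310001H17Rik and Mirt1. These were Clec2d (8.97 and 13.4 TPM), 21.9 kb from 2310001H17Rik, and Smndc1 (26.0 and 31.2 TPM), 52.7 kb from Mirt1. For Gm14005 and 4833407H14Rik the listed gene was the nearest protein-coding gene.

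**Figure D5:**
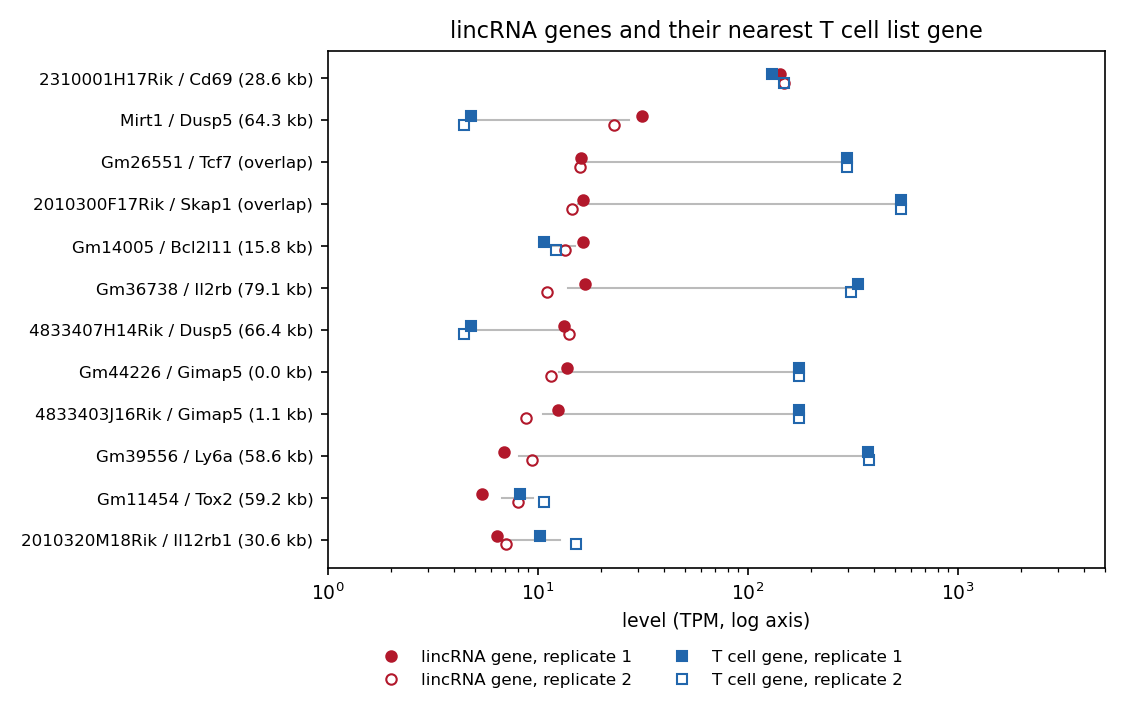
TPM of the 12 lincRNA genes (red circles) and of the nearest T cell list gene (blue squares) in technical replicate 1 (filled) and technical replicate 2 (open) on a log axis, with the distance between the genes beside their names. The neighbour is higher in 8 of the 12 pairs, and in the pair of 2310001H17Rik and Cd69 the points lie together.

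The name intergenic did not hold for all of the members. The span of 37 of the 119 (31.1%) overlapped a protein-coding gene, against 8.005% of the 5734 other lincRNA genes. Exon bases were shared with another gene by 47 members (39.5%), 43 of them on the opposite strand, against 13.3% of the other lincRNA genes. Examples, chosen after their values were seen, are Gm26733, with 2004 of its 2046 exon bases opposite the zinc finger gene Zfp26, and Gm27022, with all its 715 bases opposite Hnrnpr. The members were chosen by TPM and the strand setting is not given, so these shares are a description. Whether reads of the overlapping genes carried members past the threshold was not tested. A start within 1 kb of a protein-coding start on the other strand was as frequent as elsewhere, in 7 members (5.88%) against 5.42%. The members had longer exon sets, with a median of 2046 bases against 1020.5, and 12 of them (10.1%) had only single-exon transcripts, against 5.30%. They lay on 20 chromosomes, 12 of them on chromosome 17 and 2 on chromosome X.

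The smaller table held 4 of the 119 members, so it checks few of these levels. AW112010 had 520 and 508 counts in it, or 145 and 155 CPM (counts scaled to a common sum over the matched genes), against 768 and 779 in the larger table. Gm11110 had 76 and 45 counts, and its share of 21.2 and 13.8 CPM stood beside 19.5 and 17.1 in the larger table. Gm20939 had 60 and 69 counts, with 16.8 and 21.1 CPM beside 17.9 and 22.0. AW112010 and Gm10076 thus stood lower in the smaller table in both libraries, while Gm11110 and Gm20939 did not differ by 1.5-fold in either.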

How the data were processed

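Technical replicates 1 and 2 of 1 biological replicate were used. The larger gene table holds expected counts and TPM as deposited (per the file headers) for mm10 and GENCODE M21, which the text deposited beside each library names. Its credibility bounds, deposited by the authors and treated as signal values, were not used, since the TPM of 35 and 37 members lay above them. The deposited transcript table adds the percent of a gene's TPM on each transcript, per the file headers. The smaller table holds whole-number counts that the authors made with GENCODE M4 genes, per the deposited text. Aligner, quantifier and strand setting are not given in the sources used here. Entries without a gene name, 0.174% and 0.158% of counts, were left out.

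Expected counts were rounded and tested gene by gene with an exact two-sided binomial test, where the sum was 10 counts or more. Expected shares came from edgeR 4.0.16 (TMM), and p-values were adjusted by Benjamini and Hochberg over all genes tested, with 0.05 as the threshold. DESeq2 1.42.0 gave alternative size factors. The test was also run on simulated counts drawn by read sampling alone, which is its own assumption. That run cannot show how many false calls it makes in these libraries, where the spread was larger. Intervals are 95% Clopper-Pearson intervals and cover counting error only, since reads are not independent molecules. Figures were drawn with matplotlib 3.10.9. Spans, exons and transcript sequences came from GENCODE M21 on GRCm38 and mature microRNAs from RefSeq. Words of 31 bases were compared over all M21 transcripts.

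The genes named are the 12 members highest by mean TPM, every snoRNA host, every member within 100 kb of a T cell list gene, the 5 with the largest library ratio, 3 on each side of the threshold and members named in the literature. All other members named were chosen after their values were seen. The members and the gene lists were chosen with earlier results of these data known. No test between conditions was possible. Alternatives covered the threshold, the TPM estimate, the gene types, the pseudocount, the scaling, the count minimum, the table, distance and strand.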

Additional observations from a re-analysis of the deposited data

How the results depend on the processing

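Without technical replicate 1 or 2 the threshold gave between 124 and 135 genes, and the share of counts lay between 0.875% and 0.880%. A threshold of 10 TPM left 77 genes, all long noncoding gene types together gave 448, and leaving out genes that share an exon base with another gene left 72. Past 1.5-fold between libraries were 2 genes with a pseudocount of 1, 2 of the 4 members of the smaller table, of which Gm10076 had 0 and 2 counts, and 0 genes at 2-fold. In the smaller table the exact binomial test called 0 of 3 members tested, with 1 at an unadjusted p under 0.05. Within 50 kb of a T cell list gene were 7 members. Without Gm26917 and Gm42418 the members took 0.729% of counts, and without Malat1 0.499%, both chosen after seeing the data. The other alternatives kept each count within 1.5 times. With counts scaled by TMM in place of TPM, the library ratio had the opposite sign in 7 of the 119 members, at most 0.18 from 0 on the log2 scale of TPM, and the exact binomial test called 0 of these 7. On the union exon scale AW112010 stood above Malat1, and 10 in place of 8 of the 12 members lay below their T cell neighbour. The mean TPM of the 43 named members moved beyond the SD of the libraries in 21 with the posterior mean, and in 40 with the union exon length, which was added after seeing the data. No paired analysis was possible because there is 1 group. Under about 100 counts, library ratios are limited by counting error.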
